A study of Mus musculus with 4 samples.

Results

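Transcript levels of 5 genes used as markers of neural cells, Mapt, Gap43, Nes, En2 and Ncam1, were followed over 4 arrays of mouse embryonic stem cells. All probe sets that the platform annotation assigned to only one of these symbols were taken, which gave 10 of the 12488 probe sets on the array, and 5 of 8251 named genes. Total RNA came from E14tg2a, an embryonic stem cell line grown without feeder cells, in 4 groups of 1 array each. Control cells were sampled in medium holding 3000 U/ml of leukemia inhibitory factor (LIF), a cytokine, and after 4 days in medium lacking it. Cells labelled Akt12, which express the kinase Akt in constitutively active form, were sampled in the same media. The sources used here do not give the promoter that drives Akt, whether 12 names a clone, or whether control cells carry an empty vector. No group has a replicate, so a difference between single arrays has no replicate check.

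LIF keeps mouse embryonic stem cells undifferentiated through STAT3, and embryonic stem cells released from LIF can enter several lineages, the neural lineage among them. Akt is a kinase downstream of phosphoinositide 3-kinase. The genes mark different steps and parts of neural cells. En2 encodes a homeodomain transcription factor of the midbrain-hindbrain region of the embryo. Nes encodes nestin, an intermediate filament protein of neural stem and progenitor cells. Ncam1 encodes a cell adhesion molecule of the immunoglobulin family that can carry polysialic acid. Mapt encodes tau, which binds microtubules in axons, and Gap43 encodes a membrane phosphoprotein of axonal growth cones that binds calmodulin. Transcripts of such genes can also be present outside the nervous system.

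In RefSeq tables of assembly GRCm38.p6 the genes lie on chromosomes 11 (Mapt), 16 (Gap43), 3 (Nes), 5 (En2) and 9 (Ncam1). Of the 5 genes, the promoter table held only Nes. Its 250 bases before the RefSeq start site, chr3:87970843-87971092 on the plus strand, are shown for that reason. Nes was also the gene that differed at least 2-fold between the lines in both media. The capitals mark matches to the GC box, GGGCGG, on either strand.

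Nes: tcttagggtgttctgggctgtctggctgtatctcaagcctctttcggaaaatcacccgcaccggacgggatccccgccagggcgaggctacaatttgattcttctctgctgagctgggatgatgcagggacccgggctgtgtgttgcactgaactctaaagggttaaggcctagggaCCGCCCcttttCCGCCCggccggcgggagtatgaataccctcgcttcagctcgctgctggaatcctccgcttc

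These bases held 2 GC boxes, and 32.7% of 32851 promoter windows of that length in the table held at least 1. Their GC content was 58.8%, against a median of 52.4% over all windows. The other letters searched on both strands were the E-box CANNTG (in 66.2% of windows), the TATA box TATAAA (12.4%), the STAT site TTCNNNGAA (7.02%), the SOX motif AACAAT (9.42%) and the forkhead motif GTAAACA (3.17%). None of these is in the Nes window, which says only that the letters are not there.

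The deposited intensities were quantile normalized, and values under the 40th percentile of all normalized values, 15.8, were set to that floor before log2 was taken. Where 1 of the 2 arrays compared was at the floor, the fold is a lower limit and is given with the words at least. A 2-fold difference, a log2 difference of 1 in size, was the threshold for calling a gene different. The probe set with the highest mean stood for a gene. The only other measure of error was how far probe sets of the same gene lay apart, which does not cover differences between cultures. The SD of their log2 differences was 0.411 for LIF withdrawal in control cells, 0.351 for withdrawal in Akt cells, 0.359 for Akt against control cells with LIF and 0.411 for the lines without LIF.

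The cultures expressed stem cell markers, and of 13 pluripotency genes only Esrrb was at the floor throughout. Their summed intensity was 11457 and 4144 in control cells with and without LIF, and 12728 and 7497 in the corresponding Akt cells. Of 9 mature neuron and synapse genes on the array, Syp, Snap25, Elavl3, Elavl4 and Gad1 were at the floor throughout. The summed intensity of those 9 ranged from 266 to 472, of which Stmn2 alone made up 200.4 to 435.4, and that of 5 glial genes from 50.4 to 69.8. Summed intensities of mesoderm, trophoblast and fibroblast markers were highest in control cells without LIF, at 2656, 2307 and 885, against at most 534, 815 and 583 on the other arrays. On that array Tagln (1318.5) and Actc1 (790) made up most of the mesoderm sum. The keratin genes Krt8 (767.9), Krt18 (627.0) and Krt19 (537.7) made up most of the trophoblast sum. Sums of 9 endoderm markers were 200, 640, 486 and 624, and of 8 neural crest markers 192, 341, 163 and 197, in the order control with and without LIF, then Akt with and without LIF. The 3' to 5' signal ratio of actin, a measure of RNA integrity, was 2.33, 1.66, 3.04 and 2.48 in that order, and that of Gapdh, which ordered the arrays differently, 3.03, 3.19, 3.05 and 2.46. The part of other cell types and of RNA integrity in the values of the neural genes was not tested, and in bulk RNA fewer cells of a type cannot be told apart from less RNA per cell.

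**Figure D1:**
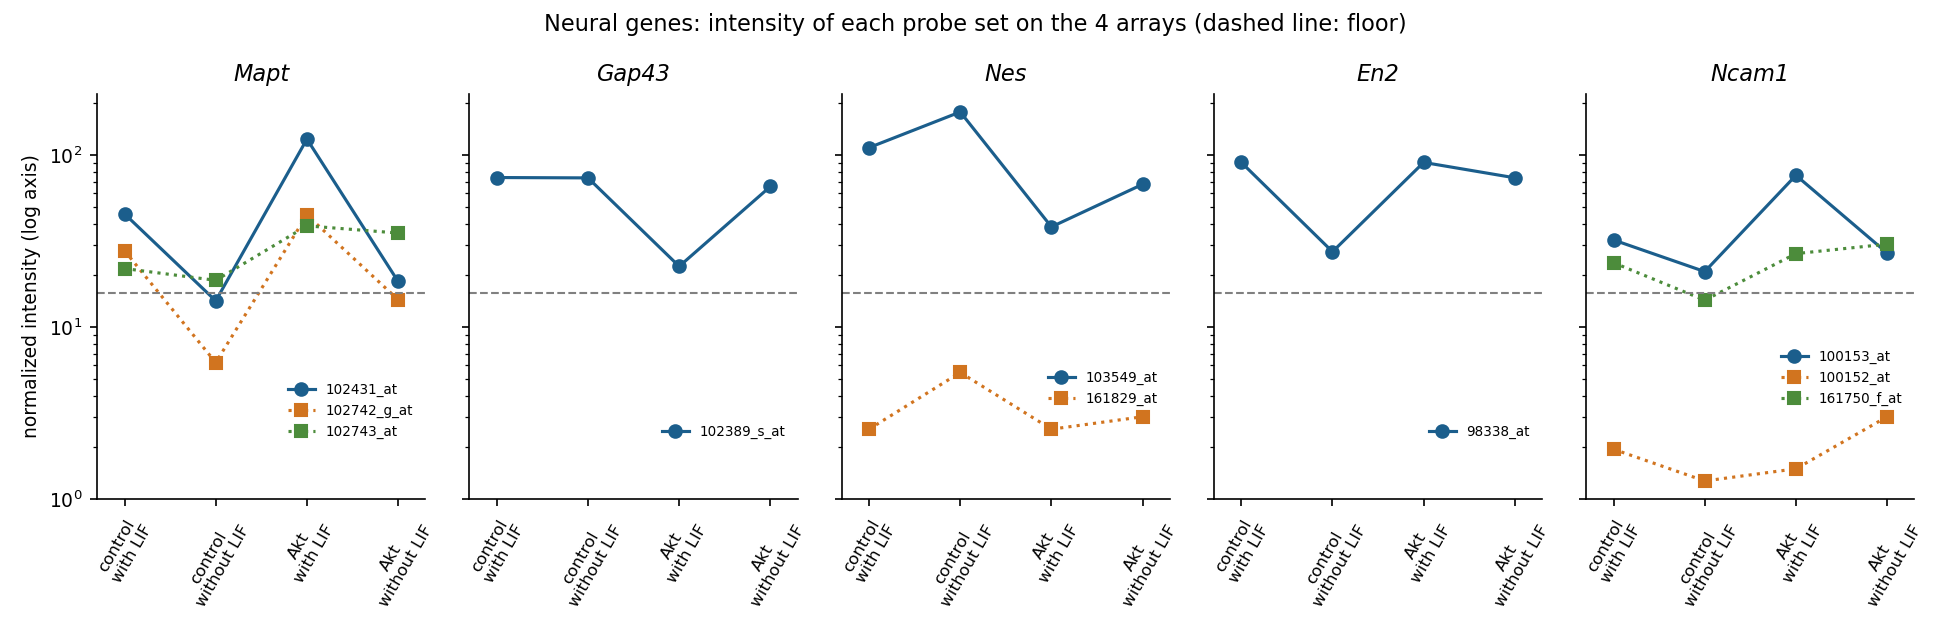
Normalized intensity (log axis) of the 10 probe sets of Mapt, Gap43, Nes, En2 and Ncam1 on the 4 arrays; circles with solid lines are the probe sets that stand for the genes, squares with dotted lines the others, and the dashed line is the floor of 15.8. Mapt and Ncam1 were highest in Akt cells with LIF, at 124 and 76.4, where Gap43 and Nes were lowest, at 22.6 and 38.3, and En2 was lowest in control cells without LIF, at 27.5.

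En2, the transcription factor gene, was measured only by probe set 98338_at, so no other probe set checks its values. Its deposited intensities were 114.4 and 30.4 in control cells with and without LIF, and 77.5 and 62.0 in the corresponding Akt cells. After normalization these were 90.8, 27.5, 90.8 and 73.9. Control cells without LIF were low, and the other 3 arrays lay close together. En2 was 3.31-fold lower after LIF withdrawal in control cells, and 1.40% of all genes were at least as far lower. In Akt cells the same withdrawal gave a log2 difference of -0.30, within the spread between probe sets. The lines were at the same normalized level with LIF, and En2 was 2.69-fold higher in Akt than in control cells without it. With values as deposited, En2 had a log2 difference of -0.56 between the lines with LIF, where the median of all genes was -0.52.

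Nes, the progenitor filament gene, had deposited intensities of 141.2 and 183.2 in control cells with and without LIF, and 31.8 and 57.2 in the corresponding Akt cells. The normalized values were 110.8, 178.6, 38.3 and 67.8. Both control arrays were above both Akt arrays, and every step in that order exceeded the spread between probe sets. Nes was 2.89-fold lower in Akt than in control cells with LIF and 2.64-fold lower without LIF. It was 1.61-fold higher after withdrawal in control cells and 1.77-fold higher in Akt cells, both under 2-fold. A second probe set, 161829_at, was at the floor on all 4 arrays, with no deposited value above 6.0, and so gives no second measurement. Averaging with a probe set at the floor shrinks the Nes differences by construction. They were then -0.77 and -0.70 in log2 between the lines with and without LIF.

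Ncam1, the adhesion gene, was measured by 100153_at at 38.8 and 23.1 in control cells with and without LIF and at 64.9 and 23.2 in the corresponding Akt cells. The normalized values were 32.2, 21.1, 76.4 and 27.0. Akt cells with LIF stood above the rest, and the next steps down, 0.25 and 0.36 in log2, were within the spread between probe sets. Ncam1 was 2.83-fold lower after LIF withdrawal in Akt cells, where 0.992% of genes were at least as far lower, and its log2 difference in control cells was -0.61. With LIF it was 2.38-fold higher in Akt than in control cells, and without LIF the log2 difference was 0.36.

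The probe sets of Ncam1 did not give one picture. Probe set 161750_f_at, whose suffix marks probes shared within a gene family, had normalized values of 23.7, 14.4, 26.8 and 30.4 in the order of the arrays above. Its log2 difference after withdrawal in Akt cells was 0.18, against -1.50 for 100153_at. Without LIF it was at least 1.93-fold higher in Akt cells. Probe set 100152_at was at the floor on every array, with no deposited value above 2.8. The Ncam1 differences therefore rest on 1 probe set. With all 3 averaged they were -0.44 for withdrawal in Akt cells and 0.48 between the lines with LIF. The floored 100152_at adds no difference, so it shrinks these means by construction.

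Mapt, the tau gene, had the widest range of the 5 genes. Its probe set 102431_at was deposited at 55.7 and 15.7 in control cells with and without LIF, and at 104.5 and 16.0 in the corresponding Akt cells. Normalized, these were 45.6, 14.2, 124.1 and 18.4, and the second of them was under the floor. Both arrays without LIF were low and did not differ beyond the spread between probe sets. Mapt was 6.73-fold lower after withdrawal in Akt cells, where 0.118% of genes were at least as far lower, and at least 2.89-fold lower in control cells. With LIF it was 2.72-fold higher in Akt than in control cells.

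A second probe set of Mapt, 102742_g_at, has the same sequence record in the platform annotation as 102431_at. Its normalized values were 27.8 and 6.23 in control cells and 44.9 and 14.5 in Akt cells, with and without LIF. Both values without LIF were under the floor, so the order of those arrays was not measured. With LIF the order was the same as for 102431_at. Probe set 102742_g_at was at least 1.76-fold lower after withdrawal in control cells and at least 2.85-fold lower in Akt cells. The third, 102743_at, which has another sequence record, had 21.9 and 18.7 in control cells and 38.8 and 35.3 in Akt cells. It put both Akt arrays above both control arrays, with log2 differences of 0.82 between the lines with LIF and 0.91 without. Its log2 differences after LIF withdrawal were -0.23 and -0.14, within the spread between probe sets. All 3 probe sets were higher in Akt than in control cells with LIF, and only the first reached 2-fold. They parted over LIF, since 102743_at differed by less than the spread in both lines. With the 3 averaged, Mapt was at -0.86 for withdrawal in control cells and 0.99 between the lines with LIF, under 2-fold, and at -1.47 for withdrawal in Akt cells.

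Gap43, the growth cone gene, was measured by 1 probe set, 102389_s_at, whose suffix marks probes that can match several transcripts. Its deposited intensities were 93.4 and 77.9 in control cells with and without LIF, and 19.0 and 55.7 in the corresponding Akt cells. The normalized values were 74.2, 73.8, 22.6 and 65.8. Akt cells with LIF stood alone at the low end, and the other 3 arrays did not differ beyond the spread between probe sets. Gap43 was 2.91-fold higher after LIF withdrawal in Akt cells, where 0.639% of genes were at least as far higher. With LIF it was 3.29-fold lower in Akt than in control cells, where 0.623% were at least as far lower.

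**Figure D2:**
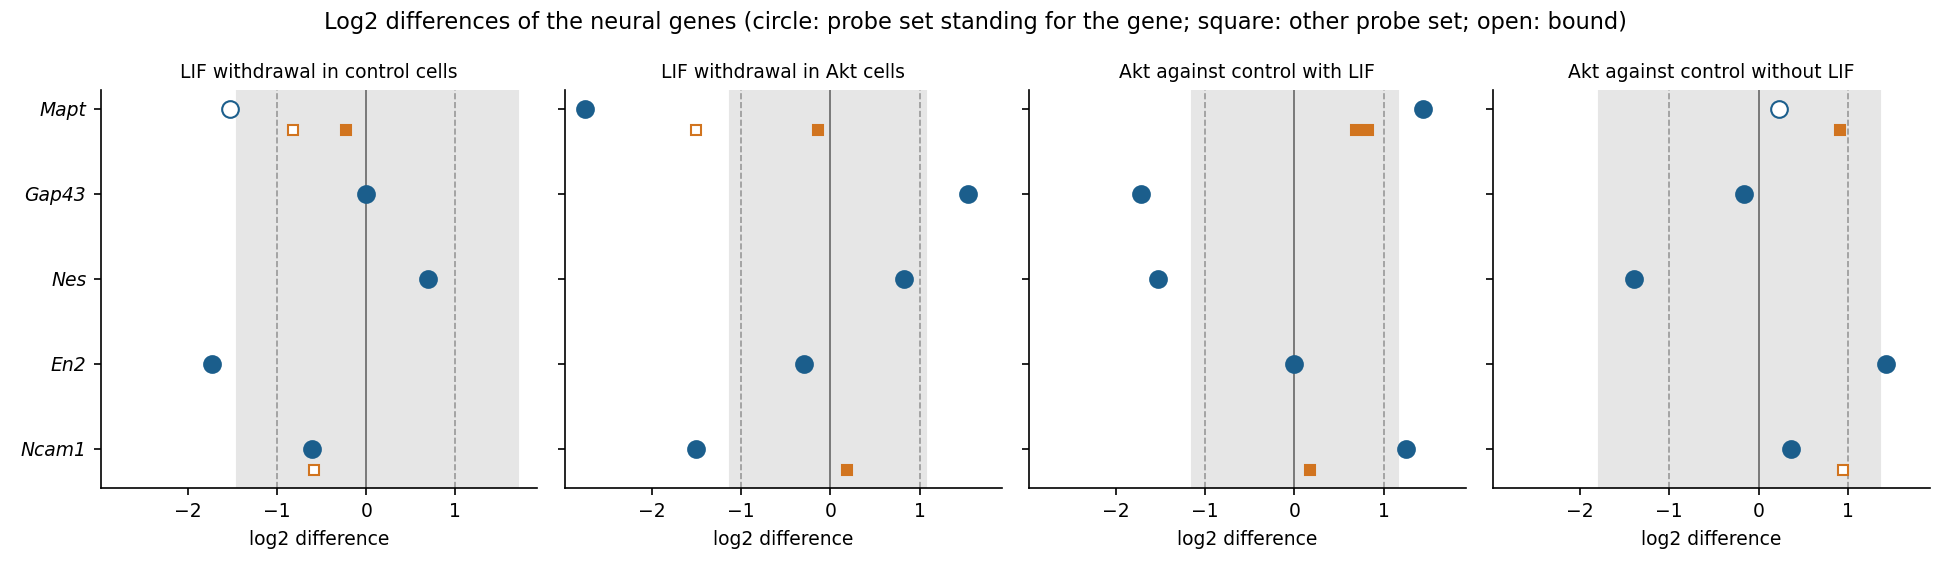
Log2 differences of Mapt, Gap43, Nes, En2 and Ncam1 in the 4 comparisons, without minus with LIF in the first pair of panels and Akt minus control in the other pair; circles are the probe sets standing for the genes, squares other probe sets, open symbols bounds, the grey band the central 95% of all genes tested and dashed lines 2-fold. Mapt lay at -2.75 and Gap43 at 1.54 for withdrawal in Akt cells, where the band ran from -1.12 to 1.07.

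After LIF withdrawal in control cells, En2 and Mapt were at least 2-fold lower and none of the 5 genes was 2-fold higher. Over the array, 6.4% of 5984 genes passed the threshold downwards and 7.39% upwards. The 5 genes were chosen with earlier results of these data known, so such shares do not test their counts in any comparison. The median of the 5 genes was -0.61, against -0.03 for all genes. In Akt cells, Mapt and Ncam1 were at least 2-fold lower and Gap43 higher, where 3.65% of 5945 genes were lower and 3.01% higher. The median was -0.30, against 0.01 for all genes. Raising the floor to the 60th percentile, an intensity of 47.8, put the lower array at the floor for En2, Gap43 and Ncam1. Their log2 differences were -0.93 for En2 in control cells, and 0.46 and -0.68 for Gap43 and Ncam1 in Akt cells. These are lower limits in size and do not show that the differences are under 2-fold. The 5 genes held no common direction in either line, and Nes alone was higher without LIF in both.

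Between the lines with LIF, Mapt and Ncam1 were at least 2-fold higher in Akt cells and Gap43 and Nes lower. Of 5938 genes, 3.5% passed it upwards and 3.64% downwards. With values as deposited, where all genes shifted to a median of -0.52, Mapt and Ncam1 were at 0.91 and 0.74 in log2, under 2-fold, and Gap43 and Nes at -2.30 and -2.15. With the 60th percentile floor, Gap43 and Ncam1 were at -0.63 and 0.68, again lower limits in size with the lower array floored. Without LIF, En2 was higher and Nes lower, where 5.87% of 6009 genes were higher and 8.12% lower. En2 was at 0.63 there with the 60th percentile floor, a lower limit because control cells without LIF were at that floor. The comparisons share arrays: that of Akt cells with LIF enters both the withdrawal in Akt cells and the contrast of the lines with LIF. For Mapt, Ncam1 and Gap43 the values of those comparisons, -2.75 and 1.45, -1.50 and 1.25, and 1.54 and -1.72, stand on the same single array. Likewise, the En2 values of -1.73 for withdrawal in control cells and 1.43 between the lines without LIF stand on the single array of control cells without LIF.

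**Figure D3:**
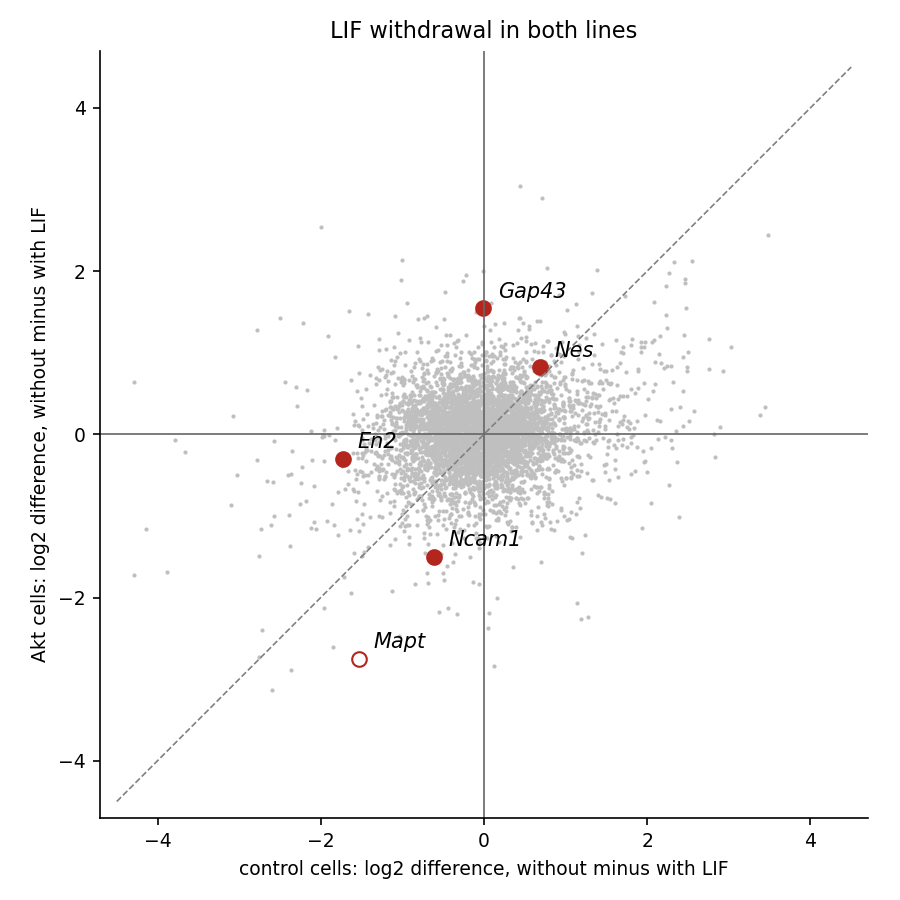
Log2 difference without minus with LIF in control cells (horizontal axis) and Akt cells (vertical axis) for genes above the floor on all 4 arrays (grey points) and for the 5 neural genes (red; Mapt is open because it was at the floor in control cells without LIF). The dashed line marks equal differences; Nes lies near it, at 0.69 and 0.82, Gap43 at -0.01 and 1.54, and En2 at -1.73 and -0.30.

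The responses of the lines were set against each other. The log2 response of the Akt cells less that of the controls was 1.55 for Gap43 and 1.43 for En2, both more than 2-fold higher in Akt cells, where 10.1% of 5671 genes were. It was -1.22 for Mapt, and 8.87% of genes were at least 2-fold lower. The En2 value is the same as its difference between the lines without LIF, since the lines were level with LIF. The Mapt value rests on the floor in control cells without LIF. When the floor was put at the 20th percentile, under that intensity, the responses of Mapt were -1.68 in control and -2.75 in Akt cells. For Ncam1 the value was -0.89 with 100153_at and 0.77 with 161750_f_at. For Nes it was 0.13, smaller than the spread between probe sets of 0.499. With 1 array per group no residual is left to test these differences.

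What both lines shared was fitted with limma across 6258 genes, with a term for the line and one for LIF. That leaves 1 residual degree of freedom, the difference between the lines' responses, moderated with 8.69 prior degrees, so that p-values rest on the spread between these 4 arrays and not on replicate cultures. For LIF withdrawal none of the 5 genes passed the adjusted p threshold of 0.05, and 4 had an unadjusted p under 0.05, as did 583 of all genes (9.32%). Mapt came nearest, with a log2 difference of -2.14 (SE 0.376) and an adjusted p of 0.0624, with 1 of its 4 arrays at the floor. Ncam1 had -1.06 (SE 0.351, adjusted p = 0.365) and En2 -1.01 (SE 0.394, adjusted p = 0.456). Nes and Gap43 were on the other side, at 0.76 and 0.77, with adjusted p-values of 0.501 and 0.643.

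For the line, Nes had a log2 difference of -1.46 in Akt against control cells (SE 0.321) with an adjusted p of 0.104. No member passed the limma threshold here, and 3 had an unadjusted p under 0.05, as did 603 of all genes (9.64%). Gap43 stood at -0.94, Mapt at 0.84, Ncam1 at 0.80 and En2 at 0.71, with adjusted p-values from 0.495 to 0.695. Over all genes 0.304% were called for LIF and 0.623% for the line. The number called depended on the settings, as 6 of 8 other settings called no gene for LIF and 2 of 8 none for the line. A p above the threshold does not show that a gene did not differ.

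Other genes of the neural programme were described from 7 lists. The array-wide rates for the 2-fold threshold were 7.39% up and 6.4% down for withdrawal in control cells. For withdrawal in Akt cells they were 3.01% up and 3.65% down. Between the lines they were 3.5% up and 3.64% down with LIF, and 5.87% up and 8.12% down without. List counts were not tested against these rates, and the lists were chosen with earlier results of these data known. Of 35 neural transcription factor genes, 23 were on the array and 13 were above the floor anywhere. Of 11 tested for LIF withdrawal in control cells, 1 was 2-fold higher and 3 lower, and the median log2 difference was 0.01. The gene that was higher was Sox3, a marker of neural progenitors (3.88-fold). Lower were Sox2, which serves stem cells and neural progenitors alike (4.74-fold), Gbx2 (at least 4.43-fold) and Pax6 (at least 2.03-fold), which pattern the neural tube and brain. In Akt cells 3 of 11 were higher, none was lower, and the median was 0.08, against 0.01 for all genes. They were the homeobox gene Irx3 (3.05-fold), the zinc finger gene Zic2 (3.02-fold, with a second probe set at -0.43 in log2) and Sox3 (2.1-fold). Pax6 alone was 2-fold different between the lines with LIF, at least 2.03-fold lower in Akt cells. Without LIF, Irx3 (5.25-fold), Sox2 (3.26-fold) and Gbx2 (at least 3.36-fold) were higher in Akt cells and Sox3 2.14-fold lower.

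Of 20 midbrain-hindbrain organizer and Engrailed partner genes, 16 were on the array. In control cells 1 of 11 was at least 2-fold higher without LIF, the organizer signal Fgf8 (at least 2.48-fold), and 1 lower, Gbx2. No gene of this list was 2-fold different after withdrawal in Akt cells, with a median of 0.52 over 9 genes, nor between the lines with LIF, with a median of -0.63 over 10 genes. Pbx3, which encodes a homeodomain partner of Engrailed and Hox proteins, had normalized values of 185.7 in control cells and 114.7 in Akt cells grown in LIF, and of 211.1 in Akt cells deprived of it. All 3 of its probe sets were higher after withdrawal in Akt cells, between 0.84 and 0.88 in log2. Without LIF, 1 of 10 was higher in Akt cells (Gbx2) and 1 lower (Fgf8, at least 2.48-fold).

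Around Mapt, 18 of 27 genes for microtubule-associated proteins, stathmins and neuronal filaments were above the floor. After withdrawal in control cells 3 of 18 passed the threshold downwards and 1 upwards, around a median of 0.00. Ina, which encodes the neuronal filament protein alpha-internexin, had normalized values of 612.8 and 124.5 in control cells with and without LIF and 298.5 and 444.2 in the corresponding Akt cells. It was 4.92-fold lower in control cells, and its second probe set gave -2.04 in log2. Crmp1, a collapsin response mediator (3.88-fold), and the neurofilament gene Nefh (2.88-fold) were also lower, and the peripherin gene Prph was 2.72-fold higher, with a second probe set at 0.49 in log2. In Akt cells the stathmin genes Stmn3 (2.77-fold) and Stmn2 (2.17-fold) were lower and none was 2-fold higher.

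Between the lines with LIF, Stmn3 was 2.81-fold higher in Akt cells, with a second probe set at 0.04 in log2, and Ina and Nefl were lower (2.05-fold, for Nefl at least). Without LIF, 3 of 18 were higher in Akt cells, Crmp1 (4.3-fold), Ina (3.57-fold) and Nefh (3.38-fold), and 2 lower. Tau kinases and phosphatases showed no 2-fold difference in any comparison among 10 or 11 genes tested, too few to set apart from the 3.01% to 8.12% of all genes that passed in 1 direction. Their medians were 0.18, 0.00, -0.05 and -0.18 for withdrawal in control cells, withdrawal in Akt cells, and Akt against control cells with and without LIF. Fyn, a tyrosine kinase that acts on tau, had log2 differences of 0.76, -0.53, 0.57 and -0.71 in that order.

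Among 9 growth cone and calmodulin-binding genes above the floor, 2 passed the 2-fold threshold upwards after withdrawal in control cells, and none downwards. They were Marcks (4.39-fold) and Marcksl1 (2.56-fold), which like Gap43 encode substrates of protein kinase C that bind calmodulin. Marcks had 74.6 in control cells with LIF and 327.0 without, while Gap43 had 74.2 and 73.8. In Akt cells 1 of 9 was lower, Stmn2, which is also in the cytoskeleton list, and none higher. With LIF the protein kinase C genes Prkca (2.2-fold) and Prkcb (2.77-fold) were higher in Akt cells. Without LIF Prkca was 2.7-fold higher, and Marcks (4.29-fold) and Marcksl1 (2.46-fold) were lower. Medians of the list were 0.52, -0.25, 0.25 and -0.72 over the 4 comparisons.

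Around Nes, 11 of 16 neural progenitor and intermediate filament genes were above the floor. Cdh2, which encodes N-cadherin, was 3.17-fold higher and Ina lower after withdrawal in control cells, and the other 7 genes tested lay between. In Akt cells Prom1, a surface marker of neural and other stem cells, was 7.47-fold higher, Cdh2 at least 2.22-fold higher and Notch1 2.15-fold lower (its other probe set was at -0.65 in log2). With LIF the Akt cells had lower Cdh2 (at least 5.46-fold), Prom1 (3.47-fold) and Ina, as they had lower Nes, and Dll1, a Notch ligand gene, was 3.96-fold higher. Without LIF, Cdh2 was 7.81-fold lower in Akt cells, and Ina and Dll1 (at least 3.03-fold) were higher. Medians were 0.29, 0.06, -0.08 and 0.07.

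Around Ncam1, 11 of 18 immunoglobulin family adhesion and polysialyltransferase genes were above the floor. After withdrawal in control cells St8sia4, which encodes an enzyme that adds polysialic acid to NCAM, was 3.24-fold higher, going from 16.7 to 54.2, while Ncam1 went from 32.2 to 21.1. Cntn1 was at least 2.35-fold higher, and Mcam (2.32-fold) and Pecam1 (2.21-fold) were lower. In Akt cells 1 of 9 was lower, Icam1 (4.53-fold), and none higher. With LIF, Icam1 was 2.94-fold higher and Cadm1 2.14-fold lower in Akt cells, with other Cadm1 probe sets at -0.20 and -0.13 in log2. Without LIF, Pecam1 (2.69-fold) was higher, and St8sia4 (3.22-fold), Cadm1 (2.99-fold, with other probe sets at -0.43 and -0.46 in log2) and Cntn1 (at least 2.35-fold) were lower. Medians were 0.30, 0.05, 0.26 and -0.02.

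**Figure D4:**
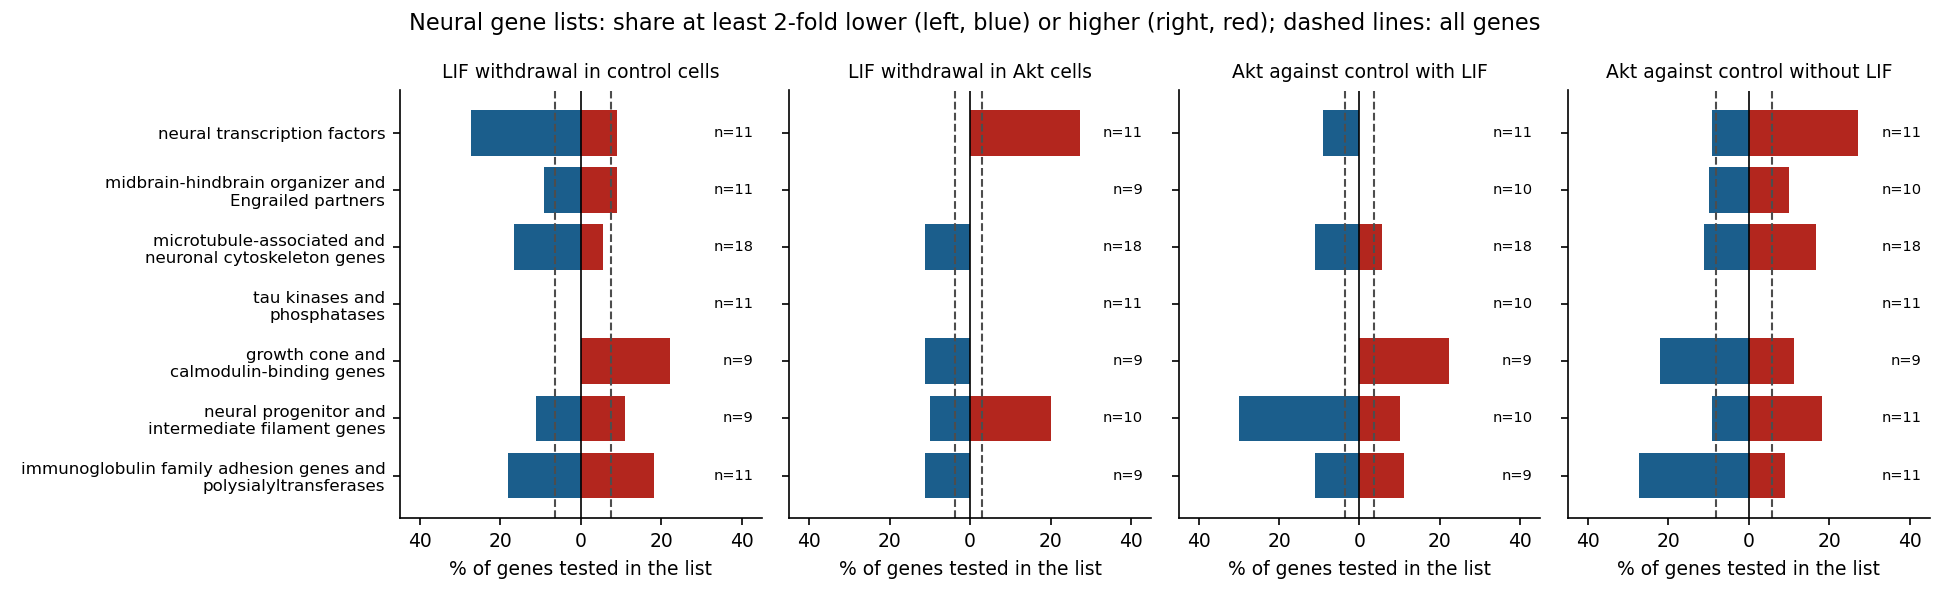
Share of tested genes at least 2-fold lower (blue, left) or higher (red, right) in 7 neural gene lists for the 4 comparisons, with the number tested at the right of each bar; dashed lines give the same share over all genes. Lists share some genes, and a bar rests on at most 3 genes; tau kinases and phosphatases have none.

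The genes whose pattern was most like that of each member were found by the Euclidean distance between log2 values centred on each gene's mean over the 4 arrays, among genes above the floor on all of them. For Mapt they were Tfcp2l1 (distance 0.254), Cradd (0.424) and Glb1 (0.633). Mapt itself was at the floor in control cells without LIF, so its distances and their order rest on a floored value. Tfcp2l1, a transcription factor gene of undifferentiated stem cells, had normalized values of 312.0 and 86.4 in control cells and 750.0 and 123.0 in Akt cells, with and without LIF. For Ncam1 the nearest were Cndp2 (0.166), Fabp3 (0.196) and Etfb (0.196), for En2 Zfp532 (0.111), Rasa4 (0.162) and Socs2 (0.213), for Nes Mast2 (0.174), Sema3e (0.178) and Ahr (0.215), and for Gap43 Esrp1 (0.324), Mlf1 (0.324) and Phtf1 (0.355). Among the members, Gap43 and Nes were the closest pair (0.881) and Mapt and Ncam1 the next (1.10), while Mapt and Nes were furthest apart (3.76). With 4 points per gene among 5026 or 5027 genes, such distances describe these arrays only.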

How the data were processed

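The authors deposited 1 table with a linear intensity for each probe set on each array; the sources used here do not give its software, background correction or scaling. Their 2% trimmed means ran from 81.0 to 122, so all 12422 probe sets other than array controls were quantile normalized (limma 3.58.1, R 4.3.3), floored at the 40th percentile (15.8) and put on a log2 scale. No deposited value of 19 probe sets for transcripts absent from mouse exceeded 14.9. That value is not on the normalized scale of the floor. In Akt cells without LIF, a deposited 16.0 for Mapt became 18.4 after normalization. The platform annotation gave 1 symbol for 10833 probe sets, several for 396 and none for 1193. Updated names came from RefSeq (assembly GRCm38.p6), where 10817 matched. Counts used the probe set with the highest mean for each gene; members were also read by probe set. From each list, up to 4 genes with the largest differences in a comparison were eligible to be named, and for each member the 3 most alike genes. The limma model (lmFit, eBayes, two-sided, Benjamini-Hochberg) was also run on simulated data. Those had equal noise for all genes and the same LIF effect in both lines. They therefore do not check p-values for genes whose responses differ between the lines. Members and lists were chosen with earlier results of these data known. Precision is limited by the number of arrays.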

Additional observations from a re-analysis of the deposited data

Results flagged for a closer look

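Among the probe sets that stand for the 5 genes, only that of Gap43 had log2 differences after LIF withdrawal of opposite sign in the lines, at -0.01 in control cells and 1.54 in Akt cells. The Akt response less the control response was 1.55. The difference was not tested, since 4 arrays leave no residual, and the value in control cells is near 0. It was 0.05 with arrays scaled to the trimmed mean and -0.26 with values as deposited. Gap43 has 1 probe set, and its low value lies on 1 array, that of Akt cells with LIF.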

How the results depend on the processing

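No paired analysis was possible because each group holds 1 array and the labels give no replicate numbers, so leaving out an array was also not possible. The 136 member log2 differences under 7 alternative settings stayed within 1 SD between probe sets in 116 cases. None that was 2-fold reversed, and 1 smaller value changed sign (Gap43 after withdrawal in control cells, 0.05 with the trimmed mean). The counts of members at least 2-fold different were 2 and 3 for LIF withdrawal in control and Akt cells, 4 and 2 for Akt against control cells with and without LIF, and 3 for the difference of the responses. With a floor at the 60th percentile, an intensity of 47.8 that puts many members on the floor, they were 0, 1, 2, 1 and 1 in that order. The mean of the probe sets of a gene takes in every probe set of Mapt, Nes and Ncam1. Those of Nes and Ncam1 at the floor on every array shrink the differences by construction. Mapt has no such probe set. Its means of -0.86 for withdrawal in control cells and 0.99 between the lines with LIF took in probe sets with smaller differences. For Ncam1, the probe sets above the floor also disagreed, at -1.50 and 0.18 for withdrawal in Akt cells. With that mean the counts were 1, 2, 1, 1 and 2. With values as deposited, 2 members differed between the lines with LIF and 2 in their responses, which was 4 with either other scaling, and the median of all genes shifted to -0.52 there, -0.26 for withdrawal in control cells and -0.23 for the lines without LIF. Scaled to the hybridization controls, all genes shifted to -0.16 for withdrawal in Akt cells and 0.13 for the lines with LIF. Among genes 2-fold different, the share that was higher moved from 53.6% to 30.1% (withdrawal in control cells), 49.1% to 6.17% (lines with LIF) and 42.0% to 18.7% (lines without LIF) as deposited. It moved from 45.2% to 24.6% (withdrawal in Akt cells) and 49.1% to 63.3% (lines with LIF) with the hybridization controls. The number of genes 2-fold different, 825, 396, 424 and 841 as reported, became 1370, 970, 1003 and 1440 when the 20th percentile set the floor, 518, 192, 214 and 501 when the 60th did, and 1070 for the lines with LIF as deposited. With a trend in the limma variance 1 member was called for LIF, Mapt, at an adjusted p of 0.0254, and its adjusted p over all settings ran from 0.0254 to 0.763. Genes called by limma for LIF, 19 as reported, numbered 0 to 32, and for the line, 39 there, 0 to 77. The cause of these shifts was not tested. Low signal limits the values of members near the floor: Mapt without LIF, Ncam1, Gap43 in Akt cells with LIF and En2 in control cells without LIF.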
